A study of Mus musculus with 9 samples.

Results

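The matrix metalloproteinases (MMP), the ADAMTS proteases, the ADAMTS-like proteins and the tissue inhibitors of metalloproteinases (TIMP) were followed across livers of mice on a high-fat diet that differed in protease-activated receptor 2 (PAR2). The 51 genes were taken by symbol from the 23337 genes of the count table: 23 named Mmp, 19 named Adamts, 5 named Adamtsl and 4 named Timp. Of these, 31 had enough reads to be tested, among 13141 tested genes in all. Polyadenylated RNA was sequenced with a stranded protocol from the livers of 9 C57BL/6 mice, 3 per group, which had eaten a high-fat diet for 16 weeks from an age of 6 to 8 weeks. The groups were mice labelled PAR2 KO, described as lacking the receptor in the whole body (KO), mice labelled PAR2dHep, described as lacking it in hepatocytes (dHep), and floxed mice labelled PAR2fl/fl (WT). All groups received the diet, and the Cre driver, sex, littermates and cages are not given in the sources used here. PAR2 sits on the cell surface and signals once a serine protease cuts it, and the series title ties it to obesity, fatty liver disease and dyslipidemia.

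MMPs are zinc proteases that are made as inactive precursors and cut collagens, elastin and other matrix proteins once the propeptide is removed. ADAMTS proteases are secreted relatives that trim proteoglycans, procollagens and von Willebrand factor, while ADAMTS-like proteins keep the ancillary domains without the protease. TIMPs bind and block the active sites of these enzymes. In liver, stellate cells, macrophages and endothelial cells are known sources, and the balance of MMPs and TIMPs is studied as a control of scar formation and its removal.

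The secreted proteases Mmp12 and Mmp13 and the inhibitor Timp1 were lower in the libraries labelled KO and in dHep livers than in WT livers, with log2 fold changes of -6.28 to -2.53. Of the 31 tested members, 12 fell and 0 rose in dHep against WT by the quasi-likelihood test of edgeR at an adjusted p under 0.05. Without WT replicate 2, or without WT replicate 3, 5 members fell in dHep. All genes called in that comparison, in either direction, also went from 3192 to 1438 and 1359. The counts with all libraries, 12 fallen and 0 risen, were also those of the libraries labelled KO against WT. Of all tested genes, 22.1% were called lower and 20.9% higher in the libraries labelled KO, and 11.9% lower and 12.4% higher in dHep, while 38.7% of the tested members fell in each comparison. Without adjustment, a p under 0.05 was reached by 0 rising members in the libraries labelled KO and by 2 in dHep, and DESeq2 called 0 members higher in either comparison. Both comparisons use the same WT libraries, so they are not independent of each other. Among the fallen members, Adamts12, Adamtsl3, Mmp13 and Timp1 passed the count filter because of their WT reads, which favours a fall over a rise.

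The targeted gene itself did not match the KO label. F2rl1, which encodes PAR2 (chr13:95511730-95525240, mm10, minus strand), had 71, 103 and 76 reads in the libraries labelled KO, 2, 8 and 0 reads in the dHep libraries, and 17, 27 and 28 reads in the WT libraries. Scaled to 1e+06 reads per library (CPM), its mean was 4.13 ± 0.698 in the libraries labelled KO, 0.127 ± 0.171 in dHep and 0.879 ± 0.208 in WT (SD, n = 3 each). It was higher in the libraries labelled KO than in WT, with a log2 fold change of 2.22 (adjusted p = 0.00735 by edgeR), under every alternative. In dHep its log2 fold change against WT was -2.73 (adjusted p = 0.0164 by edgeR), and -4.40 without dHep replicate 2. The call in dHep ended without dHep replicate 1 (adjusted p = 0.0505 by edgeR), WT replicate 2 (0.0595) or WT replicate 3 (0.062), in a range of 6.3e-05 to 0.062 over the alternatives. The table counts whole genes, so reads from an exon outside a deleted part would still be counted, and the position of the deletion is not given in the sources used here. Every direction given for these 3 libraries therefore refers to the label, not to a loss of F2rl1 transcript. Library depth was 18683660 to 30509242 reads assigned to genes, and 10 hepatocyte markers summed to 116900 to 130900 CPM in the libraries labelled KO, 116800 to 168400 CPM in dHep and 104200 to 110500 CPM in WT. Replicate 2 of dHep also held transcripts of pancreas, at 1951 CPM over 15 markers, and of skeletal muscle, at 650.9 CPM over 10 markers. Replicate 1 of WT held 515.8 CPM of the pancreas markers, and the lowest sum in any library was 12.5 CPM.

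The promoters of the clustered MMP genes are shown first, because 3 of these genes passed the threshold in dHep and most of the group shares a sequence element. On chromosome 9, 10 of the 23 MMP genes lie within 426.9 kb (chr9:7272514-7699416, mm10): Mmp13, Mmp12, Mmp1b, Mmp3, Mmp1a, Mmp10, Mmp8, Mmp27, Mmp20 and Mmp7. Promoters were found in the RefSeq table (GRCm38.p6, the assembly that mm10 stands for) for 36 of the 51 members. The motif TGANTCA takes in the AP-1 sites TGACTCA and TGAGTCA but allows any middle base, so it is wider than the AP-1 site. It reads the same on both strands and was sought in the 250 bases before each start. It was found in 8 of the 10 clustered MMP genes, which is 80%, and in 0 of the other 26 members with a promoter. Members without a promoter entry all lie outside the cluster and include Mmp2, Mmp9, Mmp16, Mmp17, Mmp19, Adamts4 and Adamts5. They were not searched, so the motif cannot be said to be confined to the cluster. Among all 27025 genes of the table, 2113 or 7.82% held it. Mmp8 and Mmp27 were the clustered genes with no match in this window. The 100 bases before the start of 5 genes are printed 5′ to 3′ on the plus strand, with a match in capitals: Mmp13 (chr9:7272414-7272513), Mmp12 (chr9:7347274-7347373), Mmp3 (chr9:7445722-7445821), Mmp10 (chr9:7502242-7502341) and Mmp27 (chr9:7571296-7571395). Mmp13, Mmp12 and Mmp27 were chosen because they were tested here, and Mmp3 and Mmp10 as neighbours with few reads.
Mmp13: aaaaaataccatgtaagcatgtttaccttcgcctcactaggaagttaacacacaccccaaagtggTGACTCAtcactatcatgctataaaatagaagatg
Mmp12: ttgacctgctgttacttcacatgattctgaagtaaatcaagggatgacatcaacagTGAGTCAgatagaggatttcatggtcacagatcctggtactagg
Mmp3: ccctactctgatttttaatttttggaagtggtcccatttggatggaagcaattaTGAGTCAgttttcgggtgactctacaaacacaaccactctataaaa
Mmp10: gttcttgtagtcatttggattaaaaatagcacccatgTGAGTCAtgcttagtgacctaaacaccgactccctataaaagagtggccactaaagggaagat
Mmp27: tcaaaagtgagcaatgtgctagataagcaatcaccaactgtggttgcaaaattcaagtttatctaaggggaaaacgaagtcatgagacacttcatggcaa
The match began 35 bases before the start in Mmp13, 44 in Mmp12, 46 in Mmp3 and 63 in Mmp10, and was TGACTCA in Mmp13 and TGAGTCA in the other 3. For Mmp12 the start that matches the counted gene is shown. A match of letters is no measure of binding.

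Mmp13, interstitial collagenase 3 and the main collagenase of rodents (chr9:7272514-7283333), had 0.423, 0.407 and 0.577 CPM in the libraries labelled KO, 0.0600, 0.0803 and 0.0490 CPM in dHep, and 3.23, 6.37 and 6.35 CPM in WT. The 3 groups did not overlap, with dHep lowest and WT highest. The dHep values rest on 5 reads over the group, against 436 in WT, so the pooled dHep level was 1.19% of WT with a 95% exact Poisson interval of 0.385% to 2.8% for counting error only. By the quasi-likelihood test of edgeR the log2 fold change was -6.28 ± 0.43 (SE) in dHep (adjusted p = 8.49e-05), a fitted value that depends on the prior count. In the libraries labelled KO it was -3.50 ± 0.34 against WT (adjusted p = 0.000212). The difference between the libraries labelled KO and dHep was itself past the threshold, at a log2 fold change of 2.78 ± 0.49 (adjusted p = 0.0111 by edgeR). It compares 9, 9 and 10 reads with 2, 2 and 1 reads. The pooled level in the libraries labelled KO was 725% of dHep, with a 95% exact Poisson interval of 276% to 2410%. The level of the count filter was reached by 1 library labelled KO, 0 dHep libraries and 3 WT libraries, so Mmp13 was tested because of WT. All 3 calls held under every alternative that gave a value. The other collagenases were near the limit of detection: Mmp8, the neutrophil collagenase, had 0 to 10 reads per library, and Mmp1a and Mmp1b had no read. Mmp1a and Mmp1b are close copies of each other, so reads from them may not be assigned to either.

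Mmp12, the elastase of macrophages (chr9:7347374-7360461), had 1.5, 3.39 and 5.19 CPM in the libraries labelled KO, 1.11, 0.321 and 0.245 CPM in dHep, and 15.7, 22.9 and 19.4 CPM in WT. Each library labelled KO exceeded each dHep library, and every WT library lay above both groups. The log2 fold change was -5.0 ± 0.55 in dHep against WT (adjusted p = 0.000705 by edgeR's quasi-likelihood test) and became -6.05 without replicate 1 of dHep. It was -2.53 ± 0.47 in the libraries labelled KO against WT (adjusted p = 0.00283 by the same test). Set against dHep, the libraries labelled KO gave 2.46 ± 0.55 (adjusted p = 0.0261 by the same test), and 3.52 without replicate 1 of dHep. That last call was lost without KO replicate 2 (adjusted p = 0.0779 by edgeR), KO replicate 3 (0.094), dHep replicate 2 (0.0694) or WT replicate 3 (0.0503), and its adjusted p ran from 2.57e-05 to 0.0957 over the alternatives. Per length, Mmp12 ranked 10 of the 51 members in the libraries labelled KO, 25 in dHep and 6 in WT.

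Mmp27, a little-studied secreted MMP (chr9:7571458-7581393), had 0.282, 0.723 and 0.923 CPM in the libraries labelled KO, 0.390, 0.643 and 0.196 CPM in dHep, and 1.05, 2.37 and 1.25 CPM in WT. Neither group overlapped with WT, and replicate 2 of WT stood above the other WT libraries. It fell in dHep, with a log2 fold change of -1.90 ± 0.53 (adjusted p = 0.0301 by edgeR), and was not past the threshold in the libraries labelled KO (-1.28 ± 0.52, adjusted p = 0.073 by edgeR). The call in dHep ended without dHep replicate 1 (adjusted p = 0.0747 by edgeR), dHep replicate 3 (0.0789), WT replicate 2 (0.132) or WT replicate 3 (0.0691), with a range of 0.00768 to 0.132 over the alternatives. Its log2 fold change was -2.55 without WT replicate 1 and dHep replicate 2 together. The clustered genes on chromosome 9 held 2.72% of all MMP reads in the libraries labelled KO, 1.09% in dHep and 12.3% in WT.

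**Figure D1:**
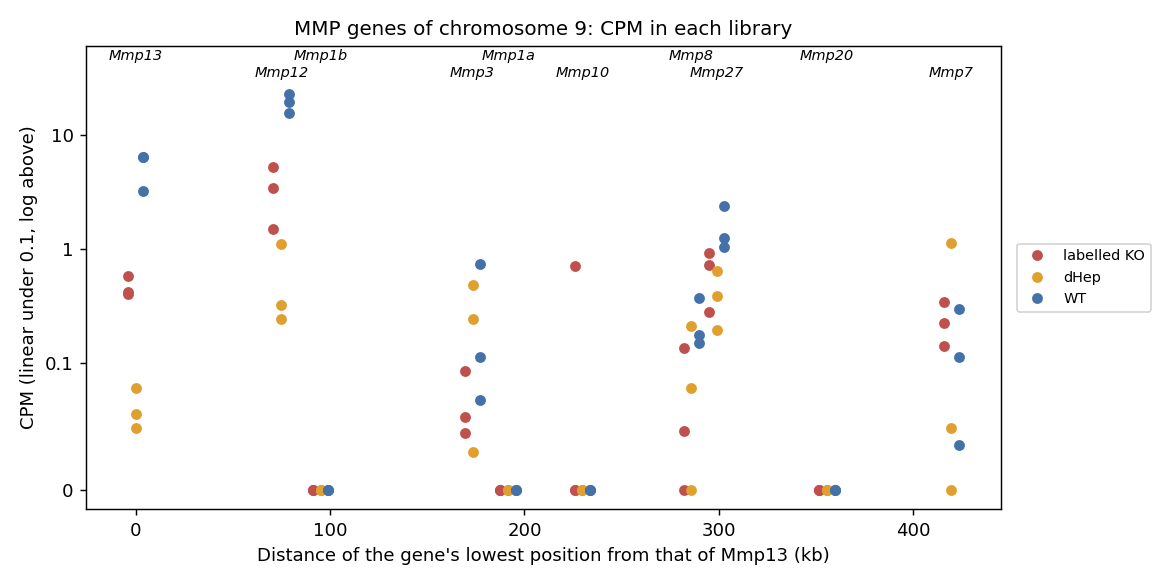
CPM of the 10 MMP genes of the chromosome 9 cluster in each library, by the distance of each gene from Mmp13 in kb, with CPM linear under 0.1 and on a log scale above. Points are single libraries of the group labelled KO (red), dHep (orange) and WT (blue); Mmp13 and Mmp12 separate the groups, with WT at 3.23 to 6.37 CPM and 15.7 to 22.9 CPM, while Mmp1a, Mmp1b and Mmp20 have no read.

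The remaining genes of the cluster had few reads, and single libraries held most of them. Mmp3, stromelysin 1, had 1 to 2 reads in the libraries labelled KO, 1, 12 and 5 in dHep, and 3, 20 and 2 in WT. Mmp10, stromelysin 2, had 15 reads in replicate 1 of the libraries labelled KO and none in any other library. That library was also the one in which every intestinal marker in the table had a read, and whether intestinal tissue contributed was not tested. Mmp7, the matrilysin of epithelia, had 28 reads in replicate 2 of dHep, the library with pancreas and muscle transcripts, and 0 to 8 elsewhere. None of these genes was tested.

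The gelatinases cut denatured collagen and the collagen of basement membranes. Mmp2 (chr8:92827328-92853420), typical of stellate cells and fibroblasts, had 2.68, 3.35 and 2.19 CPM in the libraries labelled KO, 2.34, 3.53 and 3.43 CPM in dHep, and 5.15, 6.78 and 6.17 CPM in WT. Both groups lay below every WT library and overlapped with each other. Mmp2 fell by 1.13 ± 0.23 on the log2 scale in the libraries labelled KO (adjusted p = 0.00425 by edgeR) and by 0.96 ± 0.23 in dHep (adjusted p = 0.015). The call in dHep ended without WT replicate 2 (adjusted p = 0.0716 by edgeR) or WT replicate 3 (0.0612), within a range of 0.00174 to 0.0716 over the alternatives.

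Mmp9, a product of neutrophils and macrophages (chr2:164948251-164955846), differed in its pattern. It had 4, 4 and 1 reads in the libraries labelled KO, 18, 23 and 9 in dHep, and 8, 13 and 12 in WT, which is 0.142 ± 0.0732, 0.635 ± 0.255 and 0.403 ± 0.0930 CPM (SD, n = 3 each). Every library labelled KO lay below all others. Mmp9 was lower in the libraries labelled KO than in dHep, with a log2 fold change of -2.08 ± 0.51 (adjusted p = 0.0342 by edgeR). Mmp9 reached the level of the count filter in 2 dHep libraries, 2 WT libraries and 0 libraries labelled KO. It was thus tested partly because of dHep, which favours a lower value in the libraries labelled KO. Its changes against WT were -1.43 (adjusted p = 0.0507 by edgeR) in the libraries labelled KO and 0.65 (adjusted p = 0.291) in dHep. The first of these passed without dHep replicate 2 (adjusted p = 0.0378 by edgeR), without dHep replicate 3 (0.0472) or without WT replicate 1 and dHep replicate 2 (0.0439), in a range of 0.0378 to 0.149. The call against dHep was lost under 9 of 14 alternatives, among them any library labelled KO, any WT library or dHep replicate 2 left out alone, with adjusted p from 0.0217 to 0.114 by the tools run. All 4 tested neutrophil markers fell in the libraries labelled KO against WT, beside 22.1% of all tested genes. Against dHep 3 of the 4 did so, beside 5.39%. The summed level of the 10 neutrophil markers in the table was 3.38 to 4.96 CPM in the libraries labelled KO, 6.03 to 12.9 CPM in dHep and 6.5 to 10.8 CPM in WT. Several defining markers were close to 0 throughout, with Mpo at 7 reads and Elane at 9 reads over all libraries, and the part of neutrophils in the Mmp9 values was not tested.

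Among membrane-type MMPs, which act on the cell surface, Mmp14 activates the Mmp2 precursor. Mmp14 (chr14:54431604-54441258) had 24.1, 18.3 and 21.4 CPM in the libraries labelled KO, 23.4, 27.2 and 20.9 CPM in dHep, and 29.2, 32.9 and 37.2 CPM in WT. All 6 libraries of both groups lay below the lowest WT library. It fell by 0.64 ± 0.15 on the log2 scale in the libraries labelled KO (adjusted p = 0.00784 by edgeR). In dHep it fell by 0.47 ± 0.15 (adjusted p = 0.0444 by edgeR), a call that ended without dHep replicate 1 (0.0826), dHep replicate 3 (0.105), KO replicate 3 (0.0685), WT replicate 1 (0.0527), WT replicate 2 (0.112) or WT replicate 3 (0.158). Over the alternatives its adjusted p was 0.0179 to 0.158. Mmp15 and Mmp17, the other tested genes of this class, passed in no comparison. Mmp15 averaged 36.8 ± 1.83 CPM in the libraries labelled KO, 33.7 ± 6.64 CPM in dHep livers and 37.3 ± 0.696 CPM in WT livers (SD, n = 3 each).

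Mmp19, a basement membrane protease found in many tissues (chr10:128790910-128800824), was the most abundant member per length in each group. It had 115, 107 and 122 CPM in the libraries labelled KO, 89.6, 89.6 and 142 CPM in dHep, and 108, 119 and 108 CPM in WT. The groups overlapped, and replicate 3 of dHep was the highest library. The log2 fold changes were 0.03 in the libraries labelled KO against WT (adjusted p = 0.888 by edgeR), -0.07 in dHep against WT (adjusted p = 0.804) and 0.10 between the libraries labelled KO and dHep (adjusted p = 0.733). Without replicate 3 of dHep, the comparison of dHep with WT gave -0.32 with an adjusted p of 0.0372 by edgeR, and that of the libraries labelled KO with dHep gave 0.35 with an adjusted p of 0.0276. Per length, Mmp19 reached 33.1 ± 2.19 RPKM (CPM divided by the length in kb) in the libraries labelled KO, 31.0 ± 8.68 RPKM in dHep livers and 32.4 ± 1.90 RPKM in WT livers (SD, n = 3 each). The next member in WT, Mmp14, was at 12.7 ± 1.53 RPKM. The remaining tested MMPs, Mmp11 and Mmp23, passed in no comparison. Mmp23 had no overlap between dHep and WT, at 0.300, 0.723 and 0.638 CPM in dHep against 1.32, 1.11 and 0.998 CPM in WT (adjusted p = 0.103 by edgeR).

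**Figure D2:**
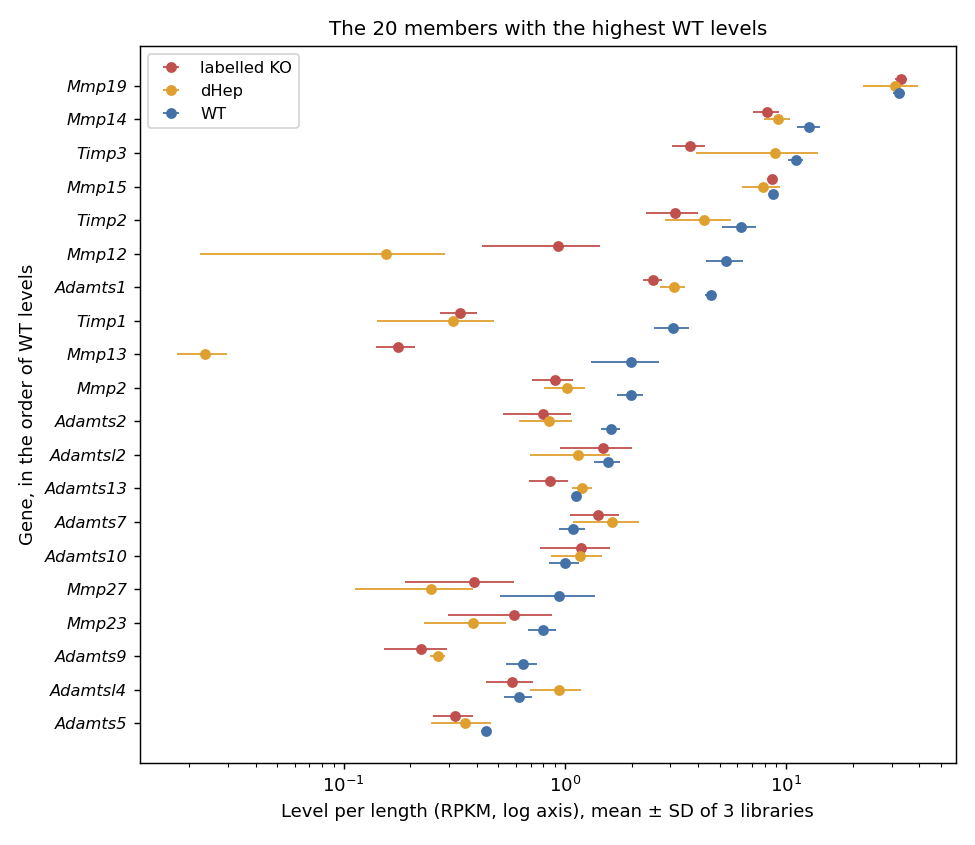
Level per length in RPKM (log axis) of the 20 members highest in WT, as the mean ± SD of 3 libraries in the group labelled KO (red), dHep (orange) and WT (blue). Mmp19 stays at the top in each group, while Mmp12, Timp1 and Mmp13 leave their WT places of 6, 8 and 9.

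The ADAMTS proteases that cut versican, aggrecan and related proteoglycans had 5 tested members, of which 2 fell in the libraries labelled KO and 3 in dHep. The shares of all tested genes that fell were 22.1% and 11.9%. Whether so small a class differs from them was not tested. Adamts1 (chr16:85793828-85803115), the most abundant ADAMTS gene per length, had 10.8, 12.7 and 13 CPM in the libraries labelled KO, 16.5, 12.9 and 16.1 CPM in dHep, and 21.0, 22.5 and 23.4 CPM in WT. Both groups lay wholly below WT. It fell by 0.87 ± 0.13 on the log2 scale in the libraries labelled KO (adjusted p = 0.00102 by edgeR) and by 0.56 ± 0.13 in dHep (adjusted p = 0.014). The call in dHep ended without WT replicate 2 (adjusted p = 0.0548 by edgeR) or WT replicate 3 (0.0656), in a range of 0.00285 to 0.0656 over the alternatives.

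Adamts9 (chr6:92772699-92901441), a relative that also cuts versican, had 1.5, 1.67 and 0.866 CPM in the libraries labelled KO, 1.62, 1.73 and 1.47 CPM in dHep, and 3.91, 3.26 and 4.53 CPM in WT. The 6 libraries of both groups were all below WT. The log2 fold change was -1.52 ± 0.27 in the libraries labelled KO (adjusted p = 0.00218 by edgeR) and -1.28 ± 0.26 in dHep (adjusted p = 0.0086), and both calls held under every alternative. Adamts15 (chr9:30899155-30922452) had 0.845, 1.18 and 0.866 CPM in the libraries labelled KO, 0.929, 0.964 and 0.638 CPM in dHep, and 1.62, 1.45 and 1.53 CPM in WT. No library of either group reached the WT range. Its fall in dHep, -0.85 ± 0.27, was just past the threshold (adjusted p = 0.0485 by edgeR) and was lost under 13 of 15 alternatives, among them every library left out alone except dHep replicate 2, with adjusted p from 0.0406 to 0.139. In the libraries labelled KO its log2 fold change was -0.66 (adjusted p = 0.0761 by edgeR). Adamts4 and Adamts5, the aggrecanases of cartilage, did not pass in either comparison with WT, at log2 fold changes of -1.76 and -0.46 in the libraries labelled KO and -1.6 and -0.31 in dHep. Adamts1 and Adamts5 are neighbours, 55041 bases apart, as are Adamts15 and Adamts8, 20110 bases apart.

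The procollagen N-propeptidases trim fibrillar procollagens before they assemble into fibres. Adamts2 (chr11:50602085-50804049) had 2.30, 4.11 and 2.48 CPM in the libraries labelled KO, 2.22, 3.86 and 3.48 CPM in dHep, and 6.5, 6.3 and 5.35 CPM in WT. WT lay above every other library, while the 2 other groups shared their range. It fell by 1.02 ± 0.28 on the log2 scale in the libraries labelled KO (adjusted p = 0.015 by edgeR) and by 0.93 ± 0.27 in dHep (adjusted p = 0.0347). The call for the libraries labelled KO ended without KO replicate 1 (adjusted p = 0.0521 by edgeR), KO replicate 3 (0.0592) or WT replicate 2 (0.0508), in a range of 0.00325 to 0.0592. The call in dHep ended without dHep replicate 1 (0.0831), dHep replicate 3 (0.0576) or any 1 WT library (0.103, 0.11 and 0.0768 for replicates 1, 2 and 3), in a range of 0.0106 to 0.11. Of the other members of the class, Adamts14 passed in no comparison and Adamts3 was below the filter.

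Adamts12 and Adamts7, which can cut cartilage oligomeric matrix protein, were both tested. Adamts12 (chr15:11064790-11346867) had 4, 2 and 0 reads in the libraries labelled KO, 17, 9 and 1 reads in dHep, and 45, 39 and 38 reads in WT. The lowest WT library had more reads than the highest of the others. The pooled level in the libraries labelled KO was 6.61% of WT, with a 95% exact Poisson interval of 2.38% to 14.8% for counting error only. The fitted log2 fold change was -3.87 ± 0.75 in the libraries labelled KO (adjusted p = 0.00332 by edgeR), -4.75 without KO replicate 1, and -2.19 ± 0.61 in dHep (adjusted p = 0.0286). The call in dHep ended without KO replicate 2 (adjusted p = 0.0504 by edgeR) or any 1 WT library (0.0874, 0.0886 and 0.0854 for replicates 1, 2 and 3), in a range of 0.00477 to 0.0886. Adamts7 had 9.63, 6.19 and 6.70 CPM in the libraries labelled KO, 11.7, 8.39 and 5.98 CPM in dHep, and 6.69, 5.26 and 5.42 CPM in WT, with overlapping groups. It passed in no comparison with all libraries, and without replicate 3 of dHep its log2 fold change of 0.80 in dHep against WT had an adjusted p of 0.0419 by edgeR.

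Adamts13, the protease that cuts von Willebrand factor and is made by stellate cells in liver (chr2:26973416-27009625), had 3.71, 4.79 and 3.29 CPM in the libraries labelled KO, 5.25, 6.14 and 5.10 CPM in dHep, and 5.18, 5.08 and 5.13 CPM in WT. All libraries labelled KO lay below the rest, and dHep overlapped with WT. The log2 fold changes were -0.38 in the libraries labelled KO against WT (adjusted p = 0.103 by edgeR), 0.10 in dHep against WT (adjusted p = 0.703) and -0.48 between the libraries labelled KO and dHep (adjusted p = 0.109). Without KO replicate 2 the comparison of the libraries labelled KO with WT had an adjusted p of 0.0411 by edgeR. The other tested ADAMTS genes, Adamts6 and Adamts10, passed in no comparison.

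The ADAMTS-like proteins, matrix proteins that associate with fibrillin microfibrils, had 5 tested members with 1 fall in each comparison against WT. That is 20% of the class, beside 22.1% of all tested genes lower in the libraries labelled KO and 11.9% in dHep. Adamtsl1 (chr4:86053915-86428382) had 0.705, 0.769 and 0.693 CPM in the libraries labelled KO, 0.270, 0.522 and 0.245 CPM in dHep, and 1.39, 0.926 and 0.998 CPM in WT. The groups did not overlap, with dHep lowest. Its log2 fold change was -1.66 ± 0.36 in dHep (adjusted p = 0.0108 by edgeR), a call that held under every alternative, and -0.61 in the libraries labelled KO (adjusted p = 0.175). The libraries labelled KO exceeded dHep by 1.05 ± 0.38 on the log2 scale, which was not past the threshold (adjusted p = 0.106 by edgeR).

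Adamtsl3 (chr7:82335694-82614448) had 7, 3 and 3 reads in the libraries labelled KO, 5, 22 and 3 reads in dHep, and 17, 33 and 27 reads in WT. Replicate 2 of dHep lay inside the WT range, while the other dHep libraries resembled those labelled KO. The log2 fold change was -2.11 ± 0.72 in the libraries labelled KO (adjusted p = 0.0381 by edgeR) and -1.26 ± 0.64 in dHep (adjusted p = 0.183). Without replicate 2 of dHep the fall in dHep was -2.62 with an adjusted p of 0.0073 by edgeR. The call for the libraries labelled KO ended without KO replicate 2 (adjusted p = 0.129 by edgeR), KO replicate 3 (0.11) or any 1 WT library (0.051, 0.115 and 0.0885 for replicates 1, 2 and 3), in a range of 0.0042 to 0.129. Adamtsl2, Adamtsl4 and Adamtsl5 passed in no comparison. For Adamtsl4, the libraries labelled KO lay below dHep without overlap, at 2.44, 2.62 and 1.62 CPM against 2.67, 4.58 and 3.63 CPM (adjusted p = 0.13 by edgeR).

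**Figure D3:**
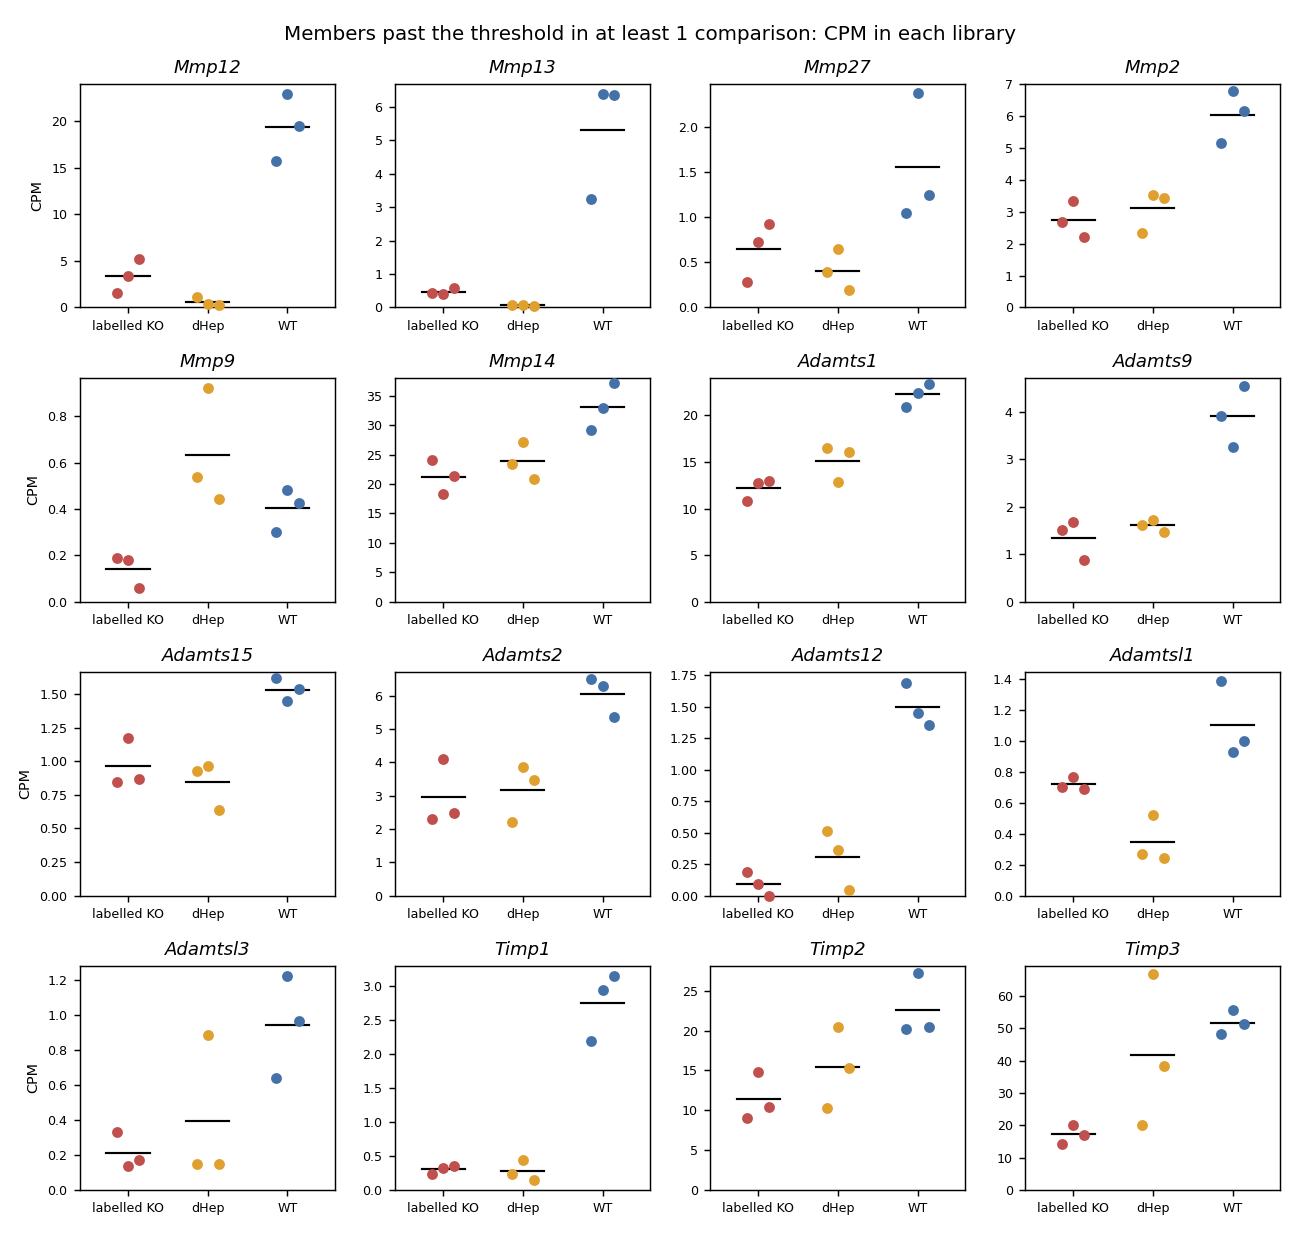
CPM of the 16 members that passed the threshold in at least 1 comparison, with each library as a point and the group mean as a line, in the group labelled KO (red), dHep (orange) and WT (blue). WT lies above both other groups without overlap for Mmp12, Mmp13 and Timp1, whereas Mmp9 is lowest in the libraries labelled KO and Timp3 spreads from 20.1 to 66.7 CPM in dHep.

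Of the 3 tested TIMP genes, 3 fell in the libraries labelled KO against WT and 1, Timp1, fell in dHep. Beside these stand 22.1% and 11.9% of all tested genes, and these 3 genes were not tested as a class. Between the libraries labelled KO and dHep, Timp3 passed the threshold and Timp1 and Timp2 did not. Timp1, the inducible inhibitor long followed in liver fibrosis (chrX:20870166-20874737), had 0.235, 0.317 and 0.346 CPM in the libraries labelled KO, 0.240, 0.442 and 0.147 CPM in dHep, and 2.18, 2.93 and 3.14 CPM in WT. Both groups lay far below WT and overlapped with each other. Its log2 fold change was -3.19 ± 0.39 in the libraries labelled KO (adjusted p = 0.000477 by edgeR) and -3.28 ± 0.38 in dHep (adjusted p = 0.000838), and both calls held under every alternative. Without WT replicate 1 and dHep replicate 2 the change in dHep was -3.88. Against dHep, the libraries labelled KO differed by 0.09 ± 0.44 (adjusted p = 0.922 by edgeR).

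Timp3, an inhibitor held in the matrix that also blocks ADAM17 (chr10:86300412-86349505), had 14.3, 20.2 and 17.0 CPM in the libraries labelled KO, 20.1, 66.7 and 38.5 CPM in dHep, and 48.2, 55.7 and 51.4 CPM in WT. The libraries labelled KO were tightly grouped, whereas dHep ran from the top of that range to above WT. Replicate 2 of dHep, the highest, is the library with pancreas and muscle transcripts, and their part in its Timp3 level was not tested. The log2 fold change was -1.59 ± 0.35 in the libraries labelled KO (adjusted p = 0.0061 by edgeR), which held under every alternative, and -0.31 ± 0.34 in dHep (adjusted p = 0.537). Without replicate 2 of dHep the change in dHep was -0.82 (adjusted p = 0.038 by edgeR), and without replicate 1 of dHep it was 0.02. Against dHep, the libraries labelled KO differed by -1.28 ± 0.35 (adjusted p = 0.0489 by edgeR), but 9 of 15 alternatives ended that call, among them any library labelled KO or any WT library left out alone. Without replicate 2 of dHep it was -0.77 (adjusted p = 0.103). Over the alternatives that adjusted p ran from 0.00212 to 0.144.

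Timp2, which together with Mmp14 governs the activation of the Mmp2 precursor (chr11:118301061-118355411), had 9.07, 14.8 and 10.4 CPM in the libraries labelled KO, 10.3, 20.5 and 15.3 CPM in dHep, and 20.2, 27.2 and 20.5 CPM in WT. The libraries labelled KO lay below WT, and replicate 2 of dHep lay within the WT range. It fell by 0.99 ± 0.27 on the log2 scale in the libraries labelled KO (adjusted p = 0.0149 by edgeR), a call that ended without KO replicate 1 (0.0517), KO replicate 3 (0.0562) or WT replicate 2 (0.0608), in a range of 0.00171 to 0.0608. In dHep its change was -0.56 ± 0.26 (adjusted p = 0.147 by edgeR), and -0.82 without replicate 2 of dHep (adjusted p = 0.0368). Timp4 had 0 to 8 reads per library and was not tested, the 8 being in replicate 2 of dHep. Timp1, Timp3 and Timp4 lie within the synapsin genes Syn1, Syn3 and Syn2 on the opposite strand. The stranded counting gave these host genes 3 to 20, 41 to 121 and 0 to 4 reads per library.

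**Figure D4:**
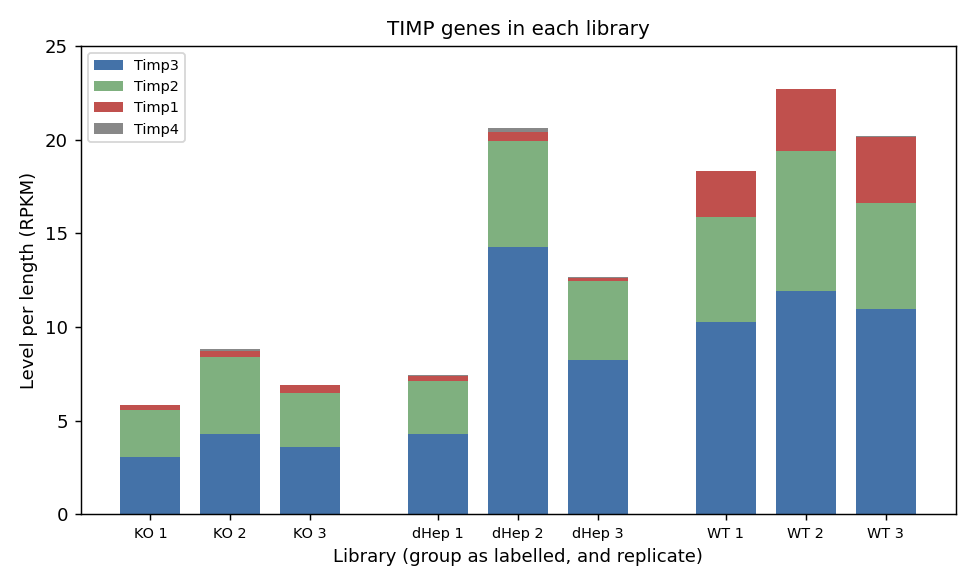
Summed level per length of the 4 TIMP genes in each library in RPKM, with the libraries labelled KO on the left, dHep in the middle and WT on the right, and bars divided by gene. The sums were 5.83, 8.81 and 6.88 RPKM in the libraries labelled KO, 7.43, 20.6 and 12.7 RPKM in dHep and 18.3, 22.7 and 20.2 RPKM in WT, and Timp3 makes up the largest part of every bar.

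As sums per length, proteases and inhibitors were lower together in most libraries. The 23 MMP genes summed to 53.7, 51.5 and 56.4 RPKM in the libraries labelled KO, 43.7, 50.7 and 59.2 RPKM in dHep, and 60.8, 70.9 and 66.4 RPKM in WT, and Mmp19 was the largest part of each sum. Both groups lay below the lowest WT library. The libraries labelled KO did not overlap with WT in the TIMP sum either, while replicate 2 of dHep lay within the WT range. The median coefficient of variation of CPM over the 31 tested members was 25.1% in the libraries labelled KO, 33% in dHep and 14.1% in WT.

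Across the 31 tested members, 9 fell in both comparisons with WT: Adamts1, Adamts2, Adamts9, Adamts12, Mmp2, Mmp12, Mmp13, Mmp14 and Timp1. In dHep alone the threshold was passed by Adamts15, Adamtsl1 and Mmp27, and in the libraries labelled KO alone by Adamtsl3, Timp2 and Timp3. Of these 6, Timp3 was also past the threshold between the libraries labelled KO and dHep, and the other 5 were not. The median log2 fold change of the tested members was -0.64 in the libraries labelled KO against WT and -0.53 in dHep against WT, beside -0.01 and 0.02 over all tested genes. Without overlap with WT, 19 members were lower in the libraries labelled KO, beside 33.8% of all tested genes, and 14 in dHep, beside 22.6%. In the opposite direction 0 members cleared WT without overlap in either comparison, beside 32.4% of all tested genes in the libraries labelled KO and 20.8% in dHep. Members that reached the count filter only outside 1 group had more room to differ: Adamts4, Adamts12, Adamtsl3, Mmp9 and Timp1 did not reach it in the libraries labelled KO, and Mmp13 did not in dHep. Adamts4, Adamts12, Adamtsl3 and Timp1 reached its level in 3 WT libraries, 1 dHep library and 0 libraries labelled KO. Mmp13 did so in 3 WT libraries, 1 library labelled KO and 0 dHep libraries. Mmp9 did so in 2 WT libraries, 2 dHep libraries and 0 libraries labelled KO, so it was tested because of WT and dHep together. The other genes named here were tested because of WT, which favours a fall over a rise.

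Between the libraries labelled KO and dHep, 2 members were higher, Mmp12 and Mmp13, and 2 were lower, Mmp9 and Timp3. Over all tested genes 4.23% were higher and 5.39% lower in that comparison. The median log2 fold change of the members was -0.16, beside -0.02 for all tested genes. Groups that did not overlap were found for 3 members higher and 3 lower, beside 13.9% higher and 12.7% lower among all tested genes. The comparison of Mmp13 was the only 1 of these 4 whose call held under every alternative that gave a value, which 14 of 15 did. It rests on few reads in both groups. In 15 of the 31 tested members no comparison passed the threshold.

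**Figure D5:**
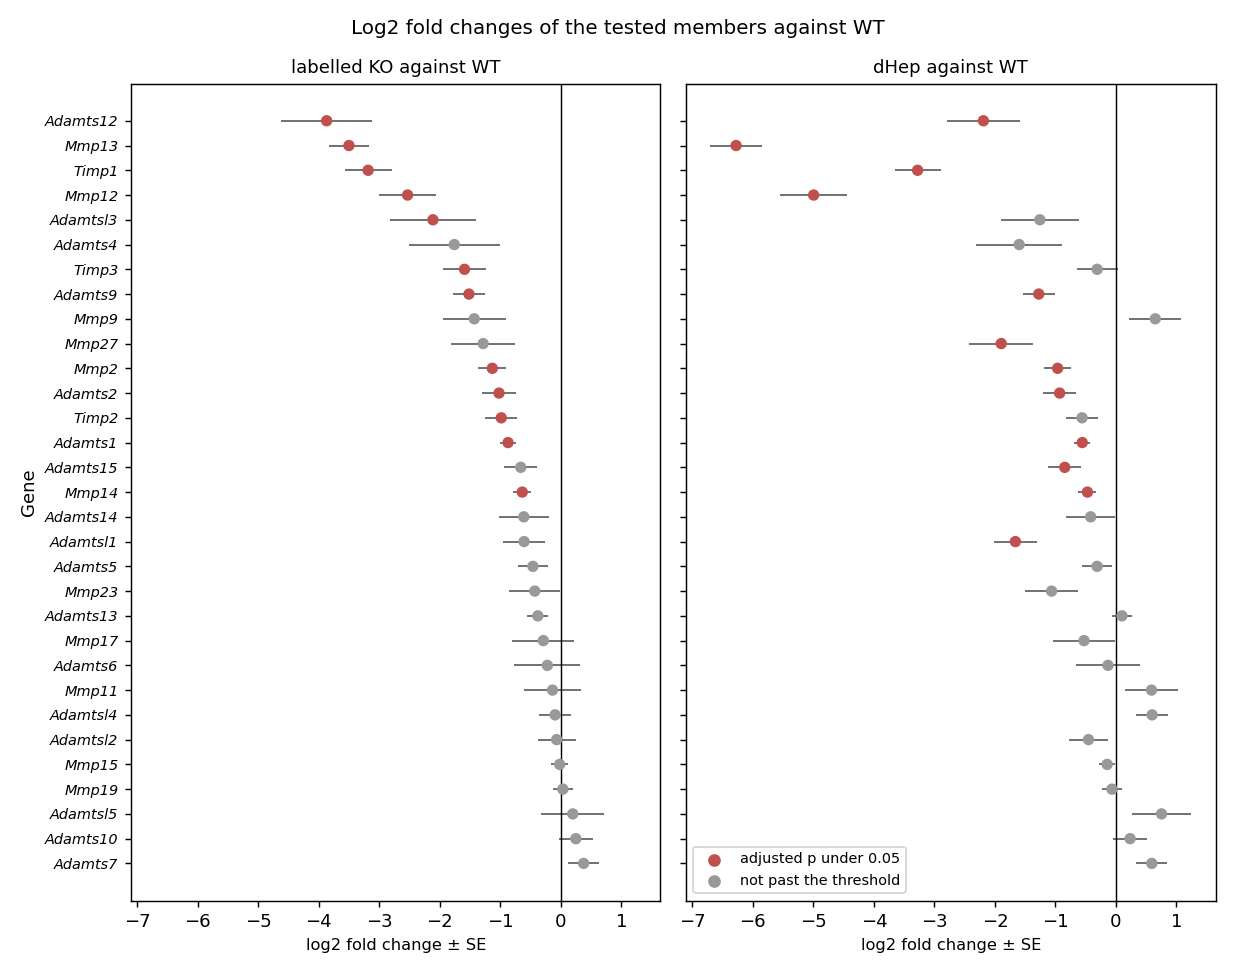
Log2 fold change ± SE against WT of the 31 tested members, in the libraries labelled KO (left) and in dHep (right), ordered by the left panel. Red points passed an adjusted p of 0.05, and every red point lies left of 0, with Mmp13 at -3.50 on the left and -6.28 on the right.

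Transcripts of the matrix proteins that these enzymes can cut were also counted. Of 25 tested matrix genes that are known or potential substrates, the libraries labelled KO had 22 lower and 1 higher than WT, and dHep had 19 lower and 0 higher. At an unadjusted p under 0.05, 0 rose in dHep, and DESeq2 also called 0 higher there. Of all tested genes, 22.1% were lower and 20.9% higher in the libraries labelled KO, and 11.9% lower and 12.4% higher in dHep. Col3a1, the fibrillar collagen cut by collagenases, averaged 29.7 ± 7.43 CPM in the libraries labelled KO, 26.5 ± 3.65 CPM in dHep livers and 136 ± 10.1 CPM in WT livers (SD, n = 3 each). Its log2 fold changes against WT were -2.20 ± 0.18 (adjusted p = 0.000111 by edgeR) in the libraries labelled KO and -2.37 ± 0.18 (adjusted p = 0.000135) in dHep. Tnc, the matrix glycoprotein tenascin C, averaged 1.01 ± 0.267 CPM in the libraries labelled KO, 0.856 ± 0.0621 CPM in dHep livers and 10.3 ± 1.49 CPM in WT livers (SD, n = 3 each). Its log2 fold changes against WT were -3.34 ± 0.23 in the libraries labelled KO (adjusted p = 4.36e-05 by edgeR) and -3.58 ± 0.23 in dHep (adjusted p = 7.69e-05). None of the 25 (0) passed between the libraries labelled KO and dHep by edgeR, beside 4 higher and 3 lower at an unadjusted p under 0.05 and 2 higher and 0 lower by DESeq2.

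Among 22 activators and other inhibitors of these enzymes, the libraries labelled KO had 5 higher and 8 lower than WT, and dHep had 3 higher and 6 lower. Over all tested genes, 20.9% were higher and 22.1% lower in the libraries labelled KO, and 12.4% higher and 11.9% lower in dHep. The rises in this list were thus near the share of all genes. Plau, the urokinase that starts the plasmin cascade, averaged 1.15 ± 0.146 CPM in the libraries labelled KO, 2.03 ± 0.276 CPM in dHep livers and 5.65 ± 0.0587 CPM in WT livers (SD, n = 3 each). It fell by 2.29 ± 0.20 and 1.48 ± 0.19 on the log2 scale in the libraries labelled KO and in dHep (adjusted p = 0.000148 and 0.00115 by edgeR). A2m, a broad protease trap, had 1, 3 and 2 reads in the libraries labelled KO, 1, 0 and 0 reads in dHep, and 23, 37 and 28 reads in WT. Its pooled dHep level was 1.18% of WT, with a 95% exact Poisson interval of 0.0295% to 6.75%. Lrp1, the receptor that clears proteases bound to inhibitors, rose by 0.85 ± 0.11 in the libraries labelled KO and by 0.59 ± 0.11 in dHep livers, on the log2 scale (adjusted p = 0.000641 and 0.00616 by edgeR).

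Of the ADAM family, membrane proteases that shed cell surface proteins, 5 of 8 tested genes fell and 0 rose in each comparison with WT. None rose at an unadjusted p under 0.05 or by DESeq2 either. The shares of all tested genes were 22.1% lower and 20.9% higher in the libraries labelled KO, and 11.9% lower and 12.4% higher in dHep. Adam10, a sheddase of Notch receptors, averaged 29.3 ± 3.09 CPM in the libraries labelled KO, 35.6 ± 5.14 CPM in dHep livers and 59.1 ± 1.6 CPM in WT livers (SD, n = 3 each), with log2 fold changes of -1.01 ± 0.13 and -0.73 ± 0.12 (adjusted p = 0.000493 and 0.00395 by edgeR). The AP-1 factors and other factors with sites in MMP promoters were mixed as a list of 13 tested genes. In the libraries labelled KO 4 rose and 4 fell, and in dHep 4 rose and 2 fell. The AP-1 genes Jun, Junb and Jund rose in both, while Ets2 and Runx1, of other families, fell in both. In the libraries labelled KO, Rela rose and Ets1 fell as well, by log2 fold changes of 0.71 and -1.17. The median log2 fold change of the 13 genes was 0.005 in those libraries and -0.243 in dHep. At an unadjusted p under 0.05, 5 rose and 4 fell in those libraries, and 4 rose and 7 fell in dHep. The 3 Jun genes therefore do not stand for the list. For Jun the log2 fold changes were 1.73 in the libraries labelled KO and 1.57 in dHep (adjusted p = 0.00619 and 0.0166 by edgeR). For Jund they were 1.75 and 0.83 (adjusted p = 0.000379 and 0.0159 by edgeR). The dHep calls of Jun and Jund were each lost under 3 of 15 alternatives, and that of Runx1 under 12. Junb had 20.5, 6.06 and 5.25 CPM in the libraries labelled KO, 19.7, 16.6 and 14.6 CPM in dHep, and 1.46, 2.26 and 1.82 CPM in WT. Its log2 fold change was 2.52 ± 0.49 in the libraries labelled KO (adjusted p = 0.00348 by edgeR), 1.63 without KO replicate 1, and 3.20 ± 0.50 in dHep (adjusted p = 0.00274).

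Several lists of cell type markers moved with the members, and others did not. In bulk tissue, fewer cells of a type and less RNA per cell cannot be told apart. The counts below stand beside 22.1% of all tested genes lower and 20.9% higher in the libraries labelled KO, and 11.9% and 12.4% in dHep. The 12 markers of lipid-associated macrophages and monocytes summed to 106 to 174 CPM in the libraries labelled KO, 85.1 to 144 CPM in dHep and 282 to 388 CPM in WT, and 10 of 12 and 9 of 12 fell against WT in the libraries labelled KO and in dHep. The 13 stellate cell markers summed to 291 to 372 CPM in the libraries labelled KO, 379 to 564 CPM in dHep and 565 to 625 CPM in WT, with 9 and 4 of 13 fallen. The 11 endothelial markers summed to 204 to 304 CPM in the libraries labelled KO, 321 to 409 CPM in dHep and 435 to 472 CPM in WT, with 9 and 4 of 11 fallen. No marker of these 3 lists was without a read in any library. The 9 Kupffer cell markers summed to 493 to 689 CPM in the libraries labelled KO, 417 to 543 CPM in dHep and 400 to 447 CPM in WT, so the libraries labelled KO lay above WT in the sum, and the genes were mixed. In the libraries labelled KO 1 was higher than in WT, C6 (log2 fold change 2.59). There 3 were lower, Cd5l (-2.15), Folr2 (-1.49) and Clec4f (-1.27). The median log2 fold change of the 9 markers was -0.953 in the libraries labelled KO, opposite in direction to their sum, and 0.222 in dHep. In dHep 1 was higher, C6, and 1 lower, Cd5l. The 9 cholangiocyte markers summed to 79.0 to 123 CPM in the libraries labelled KO, 53.5 to 70.9 CPM in dHep and 138 to 209 CPM in WT. Of 7 tested cholangiocyte markers, Spp1 fell in both groups and Sox9 rose in the libraries labelled KO, and no other was called against WT. Their median log2 fold change was 0.997 in the libraries labelled KO and 0.187 in dHep, opposite in direction to the sum. The hepatocyte markers went the other way from the members, with every library of both groups above WT in the sum. Of 9 tested hepatocyte markers, 3 rose and 0 fell in the libraries labelled KO and 5 rose and 0 fell in dHep. At an unadjusted p under 0.05, and by DESeq2, 0 of them fell in either comparison. The part of cell composition in the changes of the members was not tested.

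The 20 members that were not tested comprised 3 with no read in any library, Mmp1a, Mmp1b and Mmp20, 6 with 1 to 10 reads in all and 11 with more than 10. A count of 0 allows up to 3 reads in a library, and at this depth such genes could not be told from absent ones. The highest count of an untested member in 1 library was the 28 reads of Mmp7 in replicate 2 of dHep.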

How the data were processed

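The deposited values are raw read counts, made by the authors with featureCounts 1.6.2 at strand setting 2 per the file headers, beside a Length column in bases. HISAT2 2.1.0 and the build mm10 are named in the submitters' processing notes. All columns of values were matched to samples by their names. The members and lists were chosen with earlier results of these data known. All 23337 genes entered edgeR 4.0.16 in R 4.3.3 with TMM factors (0.883 to 1.10), and filterByExpr (minimum count 10, minimum total 15) left 13141. One quasi-likelihood fit of all 9 libraries with a mean per group gave the 3 contrasts, with Benjamini-Hochberg adjustment over all tested genes and a threshold of 0.05. The SE is the absolute log2 fold change divided by the square root of F. CPM uses TMM-scaled library sizes, and RPKM was computed here from CPM and the Length column. The labels name 1 mouse per library, and replicates differed beyond sampling noise. Reads carry no molecular identifiers, so intervals and the floor of 3 reads cover counting error only. The rule for named genes was F2rl1, the TIMP genes, Mmp2, Mmp9, Mmp12, Mmp13, Mmp14, Mmp19 and Adamts13, every other member past the threshold with a mean of at least 0.5 CPM in 1 group, and called genes of the lists with the smallest p. Other members are named where a class has no call, where reads were few, or after their values were seen. The 15 alternatives were DESeq2 size factors, DESeq2 1.42.0, no filter, only the 2 groups compared, the replicate number as a block, each library left out, and WT replicate 1 with dHep replicate 2 left out. The fit was also run on simulated data, with no outcome given here, so no support for the calls is drawn from it.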

Additional observations from a re-analysis of the deposited data

How the results depend on the processing

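Of the called members, 5 of 12 in dHep against WT and 9 of 12 in the libraries labelled KO against WT were called under every alternative. Between the libraries labelled KO and dHep, 1 of 4, Mmp13, was called under each of the 14 alternatives that gave it a value. The fit of only those 2 groups did not test Mmp13. No called fold change reversed. With each library left out in turn, members lower in dHep against WT numbered 5 to 15 and members higher 0 to 1, and all genes called there numbered 1359 to 4025, beside 3192 with all libraries. In the libraries labelled KO against WT, members lower numbered 9 to 15. Between the libraries labelled KO and dHep, members higher numbered 1 to 3, members lower 0 to 2 and all genes called 386 to 2809, beside 1264. In that comparison DESeq2 called 2068 genes, and no filter left 1 member lower. There, with only those 2 groups in the fit, 0 members were higher, 0 lower and 342 genes called. Without WT replicate 1 and dHep replicate 2, 1 was higher, 0 lower and 495 genes called. The cause of these shifts was not tested. Same-numbered libraries did not deviate together (r from -0.272 to 0.027). With the replicate number as a block, 11 members were lower in dHep against WT, where Adamts15 (adjusted p = 0.0737 by edgeR) and Mmp14 (0.081) lost their calls and Timp2 gained one (0.023). Between the libraries labelled KO and dHep, 1 member was then higher, since Mmp12 lost its call (0.0584).

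With 1 library, or WT replicate 1 and dHep replicate 2, left out, some log2 changes not called with all libraries turned sign. Mmp19 passed the threshold at -0.32 and 0.354, both without dHep replicate 3. Those of dHep against WT ran from -0.32 to 0.0481 for Mmp19 and from -0.88 to 0.0248 for Timp3, and that of the libraries labelled KO against WT from -0.013 to 0.0824 for Mmp19. Between the libraries labelled KO and dHep they ran from -0.0133 to 0.354 for Mmp19, -0.41 to 0.0769 for Adamts2, -1.31 to 0.51 for Adamtsl3 and -0.16 to 0.56 for Timp1. Among the other 13 tested members, 30 of 583 alternative values changed sign and 6 were newly called. Another scaling moved the median of all genes by at most 0.0116 (log2). Genes with few reads, such as Mmp13 in dHep and Adamts12 in the libraries labelled KO, are limited by counting error.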
